A study of Mus musculus with 17 samples.

Results

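The 37 mitochondrially encoded genes are the whole gene set of the mouse mitochondrial DNA, and they were taken here as every entry of the count table whose symbol begins with mt-. They make up 37 of the 56953 genes of the table and comprise 13 protein-coding genes, 2 ribosomal RNA (rRNA) genes and 22 transfer RNA (tRNA) genes. Their levels were measured by bulk RNA sequencing of polyA RNA from the prefrontal cortex of 8-month-old B6C3F1/J mice in 17 libraries. There were 5 WT libraries, 6 hTau libraries and 6 CgA-KO/hTau libraries. The hTau mice are the PS19 tauopathy line, which carries human 1N4R tau with the P301S mutation under the mouse prion protein promoter, a promoter active in neurons and other cells. The CgA-KO/hTau mice carry the same transgene and lack Chga, the gene of chromogranin A, in the whole body from conception. The WT mice carry neither change, so there is no Chga knockout without the transgene, and CgA-KO/hTau differs from WT by both. The paper reports males and females in each genotype, and the labels give no sex beside each library.

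Mitochondrial DNA is a small circle that is transcribed from both strands into long precursors. In these precursors the tRNAs lie between the mRNAs and rRNAs like punctuation, and their excision releases the other RNAs. Most genes are read from the heavy strand, while mt-Nd6 and a minority of the tRNAs belong to the light strand. Most of the mRNAs and the rRNAs receive a short poly(A) tail from the mitochondrial poly(A) polymerase, and for some mRNAs the tail completes a stop codon that the gene itself leaves unfinished. The 13 proteins are core subunits of the respiratory chain, which neurons rely on heavily for ATP. They are 7 subunits of complex I (NADH dehydrogenase), 1 of complex III (cytochrome bc1), 3 of complex IV (cytochrome c oxidase) and 2 of complex V (ATP synthase).

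The 3′ ends of the mRNAs are shown because selection for poly(A) RNA acts at these ends. Each line gives the last 24 bases of the annotated gene in GENCODE M21 (GRCm38), with the bases of the stop codon in capitals. Of the 13 mRNAs, mt-Co3, mt-Nd4 and mt-Cytb end with only the first base of a stop codon, and mt-Co1 is given as an example with a complete one.
mt-Co1, chrM:5328-6872, plus strand: ccaacctatgtaaaagtaaaaTAA
mt-Co3, chrM:8607-9390, plus strand: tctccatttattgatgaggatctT
mt-Nd4, chrM:10167-11544, plus strand: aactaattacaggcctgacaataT
mt-Cytb, chrM:14145-15288, plus strand: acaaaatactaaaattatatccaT

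Neighbouring genes overlap in 9 places, and reads from an overlap cannot be assigned to 1 gene. The 3 longest overlaps are shown on the plus strand with the shared bases in capitals. mt-Atp8 and mt-Atp6 share 43 bases and lie on 1 bicistronic mRNA, mt-Nd4l and mt-Nd4 share 7 bases on another, and mt-Nd5 and mt-Nd6 share 14 bases on opposite strands. The sources used here do not give the strand setting of the counting, so that counts of mt-Nd6 and mt-Nd5 and of the light-strand tRNAs can hold antisense reads.
mt-Atp8 and mt-Atp6, chrM:7912-7984: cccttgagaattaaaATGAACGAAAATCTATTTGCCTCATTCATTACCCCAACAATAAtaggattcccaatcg
mt-Nd4l and mt-Nd4, chrM:10152-10188: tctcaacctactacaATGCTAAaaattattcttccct
mt-Nd5 and mt-Nd6, chrM:13537-13580: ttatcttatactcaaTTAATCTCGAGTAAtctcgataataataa

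The table also counts 11 annotated pseudogenes in the nuclear genome with at least 95% identity over at least 100 bases to a member, and 9 of the 15 mRNA and rRNA genes have such a copy. On chromosome 1, 7 of the copies lie within a stretch of 4663 bases (GRCm38). The counts of Gm28661, a copy of mt-Co2, were 1.0005 times those of mt-Co2 in the median library, those of Gm28437 were 1.0006 times those of mt-Co3, and those of Gm10925 were 1.04 times those of mt-Atp6. Gm10222 stood at 0.994 times mt-Nd4l and Gm28438 at 0.934 times mt-Nd3. Near-equal counts like these do not separate the copy from the member, and the values of mt-Co2, mt-Co3, mt-Atp6, mt-Nd4l and mt-Nd3 are uncertain for that reason. Copies of part of a member were counted at 0.413 times mt-Nd4 (Gm28439) and 0.165 times mt-Co1 (Gm29216), so that these 2 members are uncertain to a smaller degree. The only copy of mt-Nd2, Gm13339, was at 0.0101 times its member. The copies with the lowest counts relative to their member were Gm4076, at 0.000537 times mt-Nd5, and Gm13340, at 0.00989 times mt-Co1. The members without a copy were mt-Nd1, mt-Nd6, mt-Cytb, mt-Atp8, mt-Rnr1 and mt-Rnr2.

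The libraries held 8838334 to 227651681 counts, with the lowest total in WT 4. Chga was at 0 in the 6 CgA-KO/hTau libraries and at 151.7 to 180.1 CPM (counts scaled to the TMM-normalised library size) in the others. Prnp, whose promoter drives the transgene, was at 748 to 914 CPM in WT, at 1974 to 2368 CPM in hTau and at 1236 to 2079 CPM in CgA-KO/hTau. Mapt, the mouse tau gene, was at 596 ± 228 CPM in WT (SD, n = 5), 868 ± 42.8 CPM in hTau and 705 ± 118 CPM in CgA-KO/hTau (SD, n = 6 each). Its WT values ran from 199 to 740 CPM, with a median of 701 CPM. hTau 4 to 6 were more alike than other libraries of 1 genotype, with an SD of the log2 ratio (from the median absolute deviation) of 0.0523 to 0.0607 over 3761 genes, where CgA-KO/hTau 1 and 3 gave 0.0980 and other pairs 0.146 to 0.592. These values were 1.75 to 2.22 and 2.57 times the counting noise, and each library was kept as a sample. Ddx3y, a Y-linked gene, was at 49.8 CPM or more in replicates 1 to 3 of every genotype and at no more than 0.0582 CPM in replicates 4 to 6. A list of 9 striatum markers, all detected, summed to 1097 to 3156 CPM in WT, 161 to 218 CPM in hTau and 195 to 1768 CPM in CgA-KO/hTau, and 6 neuron markers summed to 5549.96 CPM or more in every library. A list of 5 astrocyte markers, all detected, summed to 544 to 5298 CPM, and its 4 lowest sums rested on Slc1a2, at 199, 262, 294 and 228 CPM in WT 4, hTau 1, CgA-KO/hTau 5 and CgA-KO/hTau 6 against at least 1058 CPM in the other libraries. Aqp4, another marker of the list, was at 112 CPM in WT 4 and at 70.7 to 115 CPM over WT.

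The first question was how much of the RNA came from mitochondrial DNA in each genotype. Mitochondrially encoded genes took a larger share of the counts in CgA-KO/hTau than in hTau, and the share varied more among the CgA-KO/hTau mice than in the other genotypes. In WT replicates 1 to 5 the share was 3.53%, 4.08%, 4.08%, 7.94% and 3.95%. In hTau replicates 1 to 6 it was 2.56%, 2.86%, 3.40%, 4.30%, 4.21% and 4.59%. In CgA-KO/hTau replicates 1 to 6 it was 15.3%, 18.2%, 13.8%, 3.84%, 6.63% and 10.9%. CgA-KO/hTau 4 lay within the range of hTau, and the other 5 CgA-KO/hTau libraries lay above every hTau library. WT 4, at 7.94%, lay above 2 CgA-KO/hTau libraries.

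The mean share was 4.71% ± 1.82 in WT (SD, n = 5), 3.65% ± 0.836 in hTau (SD, n = 6) and 11.4% ± 5.43 in CgA-KO/hTau (SD, n = 6). CgA-KO/hTau exceeded hTau by 7.80 percentage points (two-sided exact permutation test, p = 0.00866, adjusted p = 0.0292 over the 27 tests of shares). It exceeded WT by 6.74 percentage points, which did not pass after adjustment (exact permutation p = 0.0390, adjusted p = 0.0751). hTau was 1.06 percentage points below WT, less than the spread between libraries (difference of -1.06, exact permutation p = 0.236, adjusted p = 0.319), and without WT 4 the difference was -0.25 (exact permutation p = 0.581). Both of the last comparisons share libraries with the first, since each genotype enters 2 of the 3. The smallest p these group sizes allow is 0.00216. The 95% Wilson interval of a single library was at most 0.0309 percentage points wide to either side, at 3 counts per fragment, and covers counting error only. In bulk tissue, more mitochondrial RNA per cell and more cells rich in it cannot be told apart.

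**Figure D1:**
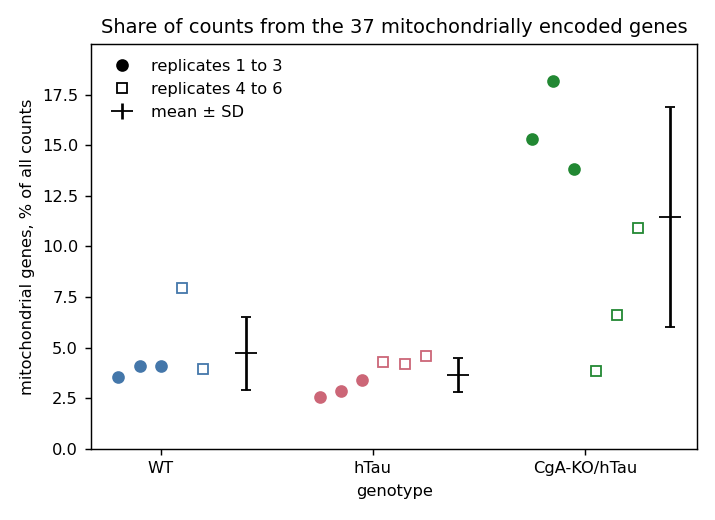
Share of all counts that came from the 37 mitochondrially encoded genes (vertical axis, %) in each library of the 3 genotypes (horizontal axis), with filled circles for replicates 1 to 3, open squares for replicates 4 to 6 and bars for mean ± SD. The 3 filled CgA-KO/hTau points lie between 13.8% and 18.2%, while its open points reach down to 3.84%, within the hTau range.

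The size of the difference depended on the replicate numbers. Among replicates 1 to 3 the share was 13.8% to 18.2% in CgA-KO/hTau, 2.56% to 3.40% in hTau and 3.53% to 4.08% in WT, with no overlap between CgA-KO/hTau and either other genotype. Among replicates 4 to 6 it was 3.84% to 10.9% in CgA-KO/hTau and 4.21% to 4.59% in hTau, and these ranges overlapped. CgA-KO/hTau exceeded hTau by 12.8 percentage points in replicates 1 to 3 alone (exact permutation p = 0.10, the smallest that 3 libraries against 3 allow) and by 2.76 in replicates 4 to 6 alone (exact permutation p = 0.40). The labels do not say what the numbers mark, and whether the difference between the sets of libraries belongs to sex, as the Ddx3y levels divide them, or to another property of the libraries cannot be told apart.

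CgA-KO/hTau 1 to 3 stood apart in other RNAs too. A list of 6 nuclear-retained RNAs (Malat1, Meg3, Miat, Neat1, Snhg11 and Rian), all detected, summed to 3710, 4524 and 3600.1 CPM in CgA-KO/hTau 1 to 3, the libraries with the largest mitochondrial share. The sum was 1971 to 2617 CPM in CgA-KO/hTau 4 to 6, 1370 to 2307 CPM in hTau and 2227 to 2952 CPM in WT. The striatum list was also high in CgA-KO/hTau 1 and 3, at 1750.2 and 1768 CPM, but at 418 CPM in CgA-KO/hTau 2, the library with the highest mitochondrial share. Oligodendrocyte markers (5 of 5 detected) summed to 1831 to 2167 CPM in CgA-KO/hTau 1 to 3 and to 959 to 1573 CPM in the other 14 libraries. The oligodendrocyte sum did not follow the mitochondrial share in the other libraries, since WT 4 had the lowest sum. The nuclear-retained sum rose with the share in CgA-KO/hTau 4 to 6, at 1971, 2485 and 2617 CPM for shares of 3.84%, 6.63% and 10.9%. It was 2177 to 2307 CPM in hTau 4 to 6 against 1370 to 1787 CPM in hTau 1 to 3, and WT 4 had the highest sum of WT. Other libraries did not follow the share, since WT 1, at 3.53%, had 2916 CPM, more than CgA-KO/hTau 6. The part of these RNAs in the result was not tested.

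At the level of single genes, 36 members passed the filter on low counts, and only mt-Ts2 did not. Levels per length are given as CPM per kb, and mt-Co1 came first and mt-Nd3 last among the mRNAs and rRNAs in each genotype. mt-Co1, the catalytic core of cytochrome c oxidase, was the highest member per length in 16 of 17 libraries, with medians of 5982 CPM per kb in WT, 6517 in hTau and 18022 in CgA-KO/hTau. In WT 4 the highest was mt-Cytb, the cytochrome b of complex III. mt-Nd3, a small membrane subunit of complex I, was the lowest mRNA in 17 of 17 libraries, with medians of 762, 614 and 1750 CPM per kb.

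In WT the medians followed the order mt-Co1, mt-Cytb (3941 CPM per kb), mt-Atp6 (3762), mt-Nd1 (3355), mt-Atp8 (3089), mt-Co2 (2975), mt-Nd2 (2593), mt-Nd4 (2587), mt-Nd6 (2332), mt-Co3 (2090), mt-Nd5 (1710), mt-Nd4l (1564), mt-Rnr2 (1205), mt-Rnr1 (1150) and mt-Nd3. The ranges over the 5 libraries overlapped for every pair of neighbours in this order except mt-Rnr1 and mt-Nd3. Within libraries the order was sharper, and mt-Cytb exceeded mt-Atp6 in 5 of 5 WT libraries, whereas mt-Nd2 exceeded mt-Nd4 in 2 of 5. mt-Nd6, the light-strand mRNA, stood at 1.28 ± 0.0886 times the level per length of mt-Nd5 in WT (SD, n = 5), 1.20 ± 0.0285 in hTau and 1.18 ± 0.0572 in CgA-KO/hTau (SD, n = 6 each). The 2 rRNAs, the RNA cores of the small and large mitochondrial ribosomal subunits, were close to each other in level per length, with a ratio of mt-Rnr1 to mt-Rnr2 of 1.02 ± 0.0443 in WT (SD, n = 5), 0.999 ± 0.0426 in hTau and 1.04 ± 0.0966 in CgA-KO/hTau (SD, n = 6 each). Both ribosomal RNAs were captured here by selection for poly(A) RNA, so their level does not give their amount in the cell.

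**Figure D2:**
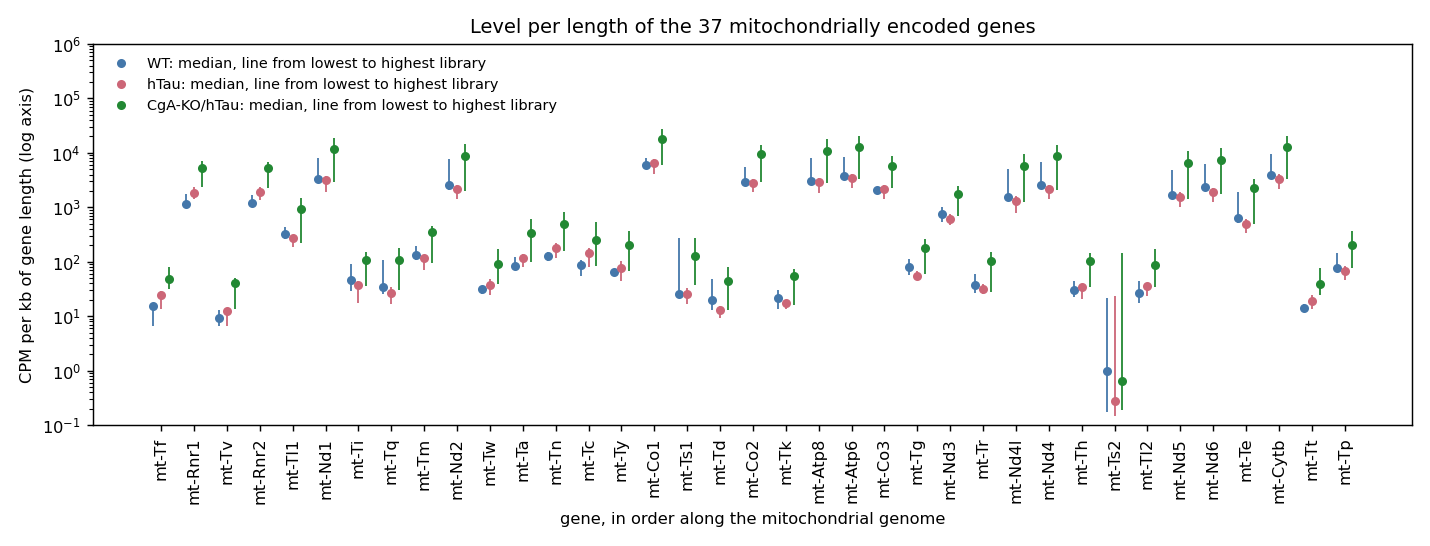
Level of each of the 37 genes as CPM per kb of gene length (vertical log axis), in order along the mitochondrial genome (horizontal axis), for the 3 genotypes, with the point at the median library and the line from the lowest to the highest. mt-Co1 has the highest median in each genotype, mt-Te is the highest tRNA and reaches the levels of mt-Nd3, and mt-Ts2 has the lowest median of all.

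The tRNAs together took 0.305% to 0.361% of the mitochondrial counts in the 17 libraries. Mature tRNAs are short and lack long poly(A) tails, and whether the counts came from them or from longer precursors was not tested. mt-Te, the tRNA for glutamate beside mt-Nd6, was the highest per length in 17 of 17 libraries, at a median over all libraries of 612 CPM per kb. The next was mt-Tl1, the leucine tRNA between mt-Rnr2 and mt-Nd1, at 314 CPM per kb. The other tRNAs had medians of 0.617 to 158 CPM per kb. The lowest was mt-Ts2, a serine tRNA, which had 2 counts in 13 libraries and 1 count in WT 4, but 131 in WT 5, 252 in hTau 3 and 482 in CgA-KO/hTau 1. The annotated sequences of the highest and the lowest tRNA are given in RNA sense as DNA letters.
mt-Te, chrM:14071-14139, minus strand: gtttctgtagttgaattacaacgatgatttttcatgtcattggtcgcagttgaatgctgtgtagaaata
mt-Ts2, chrM:11613-11671, plus strand: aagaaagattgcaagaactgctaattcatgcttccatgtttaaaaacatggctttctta

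In the comparison of CgA-KO/hTau with hTau, 35 of the 36 members tested were higher in CgA-KO/hTau and 0 were lower at a false discovery rate (FDR) under 0.05 (edgeR quasi-likelihood test, adjusted over 23062 genes). Over all genes tested, 5.5% were called higher and 4.22% lower. The median log2 fold change of the members was 1.60, against 0.03 over all genes. At an unadjusted p under 0.05, 36 members were higher and 0 lower, and DESeq2 called 36 higher and 0 lower. Over all genes, DESeq2 called 3958 of 39993 in either direction. The share of all genes at an unadjusted p under 0.05 was not counted in any comparison. The member not called was mt-Tc, the cysteine tRNA, with a log2 fold change of 1.07 ± 0.38 (SE, FDR = 0.0814, edgeR). No overlap between the libraries was seen for 3 of the 36, the tRNAs mt-Tf, mt-Ts1 and mt-Tt, and 0 were lower without overlap, where 2.84% of all genes were higher and 3.79% lower without overlap.

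The 7 complex I members, which carry the proton-pumping membrane arm, rose together. mt-Nd1 was at 2954, 3181, 3227, 7785 and 3211 CPM in WT 1 to 5. It was at 1835, 2121, 2899, 3129, 3110.5 and 3537 CPM in hTau 1 to 6. It was at 12970.5, 17872, 10944, 2847, 6235 and 11419 CPM in CgA-KO/hTau 1 to 6. CgA-KO/hTau 4 was below 4 of the hTau libraries, and the other 5 were above all of them. The log2 fold change over hTau was 1.91 ± 0.35 for mt-Nd1 (SE, FDR = 0.00514, edgeR). For the other complex I members, mt-Nd2, mt-Nd4, mt-Nd4l, mt-Nd5 and mt-Nd6 rose by 1.964 to 2.06 on the log2 scale, and mt-Nd3 by 1.40.

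In complex III, mt-Cytb was at 2529 to 4599 CPM in hTau (median 3791) and at 3712 to 23469 CPM in CgA-KO/hTau (median 14713). Its log2 fold change was 1.93 ± 0.36 (SE, FDR = 0.00515, edgeR). In complex V, mt-Atp8 and mt-Atp6, parts of the proton channel of ATP synthase, rose by 1.94 ± 0.37 and 1.86 ± 0.34 (log2, SE, FDR = 0.00562 and 0.00486, edgeR).

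The 3 complex IV members also rose. mt-Co1 was at 8497, 9242, 9707, 12418 and 8312 CPM in WT 1 to 5. It was at 6272, 7739, 8989, 11147, 11259 and 12101 CPM in hTau 1 to 6. It was at 38117, 42143, 35214, 9403, 14649 and 20474 CPM in CgA-KO/hTau 1 to 6. CgA-KO/hTau 4 was again inside the hTau range, and the other 5 were above it. The log2 fold changes over hTau were 1.48 ± 0.30 for mt-Co1, 1.72 ± 0.31 for mt-Co2 and 1.44 ± 0.29 for mt-Co3 (SE, FDR = 0.00783, 0.00426 and 0.00761, edgeR). The rRNAs rose by 1.39 ± 0.25 for mt-Rnr1 and 1.37 ± 0.27 for mt-Rnr2 (log2, SE, FDR = 0.00473 and 0.00712, edgeR), and 20 of the 21 tRNAs tested rose.

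The calls rested on the libraries of replicates 1 to 3. In those libraries alone, 36 of 36 members tested were called higher, with a median log2 fold change of 2.42. Of all genes tested there, 6713 of 21613 were called in either direction. In replicates 4 to 6 alone, 0 of 37 were called in either direction (edgeR), 1 was higher and 1 lower at an unadjusted p under 0.05, and the median was 0.78. Of all genes tested in replicates 4 to 6, 190 of 23562 were called. With hTau 4 to 6 averaged to 1 sample and CgA-KO/hTau 1 and 3 averaged to 1 sample, 1 member was called higher, at a median of 1.64 on the log2 scale, and 36 were higher at an unadjusted p under 0.05. In that fit 156 of all 22395 genes tested were called. The number of calls thus moved with the libraries used over all genes, not in the members alone.

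**Figure D3:**
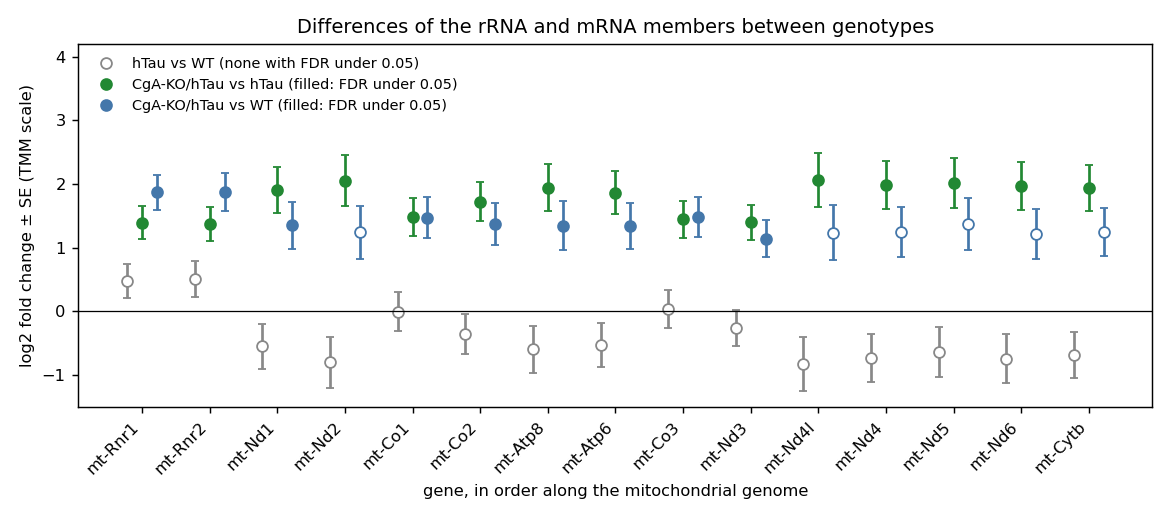
Log2 fold change with its SE (vertical axis, TMM scale, edgeR) of the 15 rRNA and mRNA members in genome order (horizontal axis) in the 3 comparisons, filled where the FDR was under 0.05. In CgA-KO/hTau against hTau all 15 are filled, at 1.37 to 2.06, in CgA-KO/hTau against WT 9 are filled, and in hTau against WT 0 are.

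In the comparison of CgA-KO/hTau with WT, 25 of the 36 members tested were higher in CgA-KO/hTau and 0 were lower (FDR under 0.05, edgeR), where 3.56% of all genes were called higher and 2.89% lower. The median log2 fold change was 1.36, against 0.01 over all genes. At an unadjusted p under 0.05, 35 members were higher and 0 lower, and DESeq2 called 35 higher and 0 lower. Over all genes, DESeq2 called 2564 of 39993 in either direction. Of the 13 mRNAs, 7 were called, namely mt-Nd1, mt-Nd3, mt-Co1, mt-Co2, mt-Co3, mt-Atp8 and mt-Atp6, and both rRNAs and 16 of the 21 tRNAs tested were. The rRNAs had the largest differences among the mRNAs and rRNAs, at 1.87 ± 0.27 for mt-Rnr1 and 1.87 ± 0.30 for mt-Rnr2 (log2, SE, FDR = 9.59e-04 and 0.00178, edgeR). mt-Rnr2 was at 1678 to 2696 CPM in WT (median 1906) and at 3533 to 10706 CPM in CgA-KO/hTau (median 8429), with no overlap. No overlap was also seen for mt-Rnr1, mt-Co3 and the tRNAs mt-Tf, mt-Tv, mt-Tn, mt-Tw and mt-Tt, so that 8 of 36 members were higher and 0 lower without overlap, against 2.06% and 1.54% of all genes.

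The count of 25 depended on single libraries. It was 36 without WT 4, the library with the fewest counts and the highest mitochondrial share of its genotype, and 35 without CgA-KO/hTau 4. It was 15 without WT 1, 13 without WT 5 and 15 without CgA-KO/hTau 2. The number called over all genes moved too, from 1489 with every library to 2099 without WT 4 and 627 without WT 5. In replicates 1 to 3 alone 36 of 36 members were higher, and in replicates 4 to 6 alone mt-Tf was higher and mt-Ts2 lower, the latter resting on the 131 counts of WT 5. Of all genes tested, 4474 of 21613 were called in replicates 1 to 3 alone and 718 of 23562 in replicates 4 to 6 alone.

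In the comparison of hTau with WT, 0 of the 36 members tested were called in either direction (edgeR), where 1.95% of all genes were called higher and 3.95% lower. At an unadjusted p under 0.05, mt-Tf was higher and mt-Ts1 lower, and DESeq2 called 0, with 1 higher and 7 lower at an unadjusted p under 0.05. Over all genes, DESeq2 called 2396 of 39993 in either direction. mt-Ts1 was at 18.9 CPM in WT 4, at 1.52 to 2.14 CPM in the other WT libraries and at 1.18 to 2.30 CPM in hTau, so that its lower value rests on WT 4. The median log2 fold change was -0.36, against 0.01 over all genes, and it was -0.16 without WT 4. Without overlap, 0 members were higher and 0 lower, against 5.13% and 4.39% of all genes. The 13 mRNAs had log2 fold changes of -0.83 (mt-Nd4l) to 0.04 (mt-Co3), while the rRNAs were at 0.47 ± 0.26 (mt-Rnr1) and 0.50 ± 0.28 (mt-Rnr2) (log2, SE, FDR = 0.322 and 0.329, edgeR).

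The second question was how the mitochondrial counts were divided among RNA classes, strands and complexes. Unlike the total, this makeup separated hTau from WT. The rRNAs took 7.91%, 10.3%, 7.82%, 5.45% and 7.26% of the mitochondrial counts in WT 1 to 5. They took 14.0%, 13.6%, 10.6%, 14.2%, 13.5% and 12.99% in hTau 1 to 6, above every WT library. They took 10.4%, 8.73%, 11.7%, 15.4%, 10.4% and 9.05% in CgA-KO/hTau 1 to 6, which overlapped both. hTau exceeded WT by 5.38 percentage points (exact permutation p = 0.00433, adjusted p = 0.0195). CgA-KO/hTau differed from hTau by -2.17 percentage points (exact permutation p = 0.0801, adjusted p = 0.127) and exceeded WT by 3.21 (exact permutation p = 0.0260, adjusted p = 0.0584), and neither passed after adjustment. In level per length, mt-Rnr2 stood at 0.340 ± 0.0939 times mt-Nd1 in WT (SD, n = 5), 0.652 ± 0.0976 in hTau and 0.490 ± 0.158 in CgA-KO/hTau (SD, n = 6 each).

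Among the mRNA counts, complex I took less and complex IV more in hTau. The complex IV share was 37.4%, 37.01%, 38.2%, 23.7% and 33.4% in WT 1 to 5. It was 40.7%, 43.8%, 39.9%, 42.4%, 42.4% and 41.2% in hTau 1 to 6, above every WT library. It was 37.5%, 32.0%, 39.5%, 41.5%, 33.5% and 27.2% in CgA-KO/hTau 1 to 6, of which CgA-KO/hTau 4 alone lay inside the hTau range. The means were 33.9% ± 6.003 in WT (SD, n = 5), 41.7% ± 1.39 in hTau and 35.2% ± 5.29 in CgA-KO/hTau (SD, n = 6 each). hTau exceeded WT by 7.77 percentage points (exact permutation p = 0.00216, adjusted p = 0.0146), and CgA-KO/hTau was below hTau, with a difference of -6.52 (exact permutation p = 0.0108, adjusted p = 0.0319). CgA-KO/hTau and WT differed by 1.26 percentage points (exact permutation p = 0.716, adjusted p = 0.806).

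The complex I share mirrored this, at 40.3% to 51.7% in WT, 36.5% to 39.5% in hTau and 37.7% to 49.2% in CgA-KO/hTau. hTau was below WT, with a difference of -5.45 percentage points and no overlap (exact permutation p = 0.00216, adjusted p = 0.0146). CgA-KO/hTau was 4.83 percentage points above hTau (exact permutation p = 0.0130, adjusted p = 0.0319). Complex III, which is mt-Cytb alone, took 12.6% to 14.7% in WT, 11.2% to 11.9% in hTau and 11.7% to 13.4% in CgA-KO/hTau. Its share was lower in hTau than in WT by a difference of -1.83 percentage points (exact permutation p = 0.00216, adjusted p = 0.0146) and higher in CgA-KO/hTau than in hTau by 1.11 (exact permutation p = 0.00433, adjusted p = 0.0195). The complex V share was 8.96% to 9.84% in WT and 8.57% to 9.10% in hTau, a difference of -0.50 percentage points (exact permutation p = 0.0130, adjusted p = 0.0319), and 8.59% to 10.2% in CgA-KO/hTau (against hTau 0.576, exact permutation p = 0.0671, adjusted p = 0.113). Shares of 1 whole are tied to each other, so that a higher share of one complex lowers the others.

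The nuclear copies were also taken into account. With the counts of the copies added to the member they match, the complex I difference between hTau and WT was -5.34 and that of complex IV was 7.63 percentage points, both without loss of the call. The 6 members that have no copy include no complex IV gene, so that a complex I share among them has another denominator and is not comparable. That share was higher in hTau than in WT, by 1.21 percentage points (exact permutation p = 0.0303). As shares of all mitochondrial counts, the complex I members among the 6 averaged 7.67% in hTau and 8.67% in WT for mt-Nd1, with overlap, and 2.57% and 3.23% for mt-Nd6, without overlap. mt-Cytb of complex III averaged 9.95% and 12.3%, without overlap, and mt-Atp8 of complex V 1.49% and 1.72%, with overlap. A lower share was thus not confined to complex I. Among these 6 members the rRNAs took more in hTau than in WT, by 14.6 percentage points (exact permutation p = 0.00216).

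**Figure D4:**
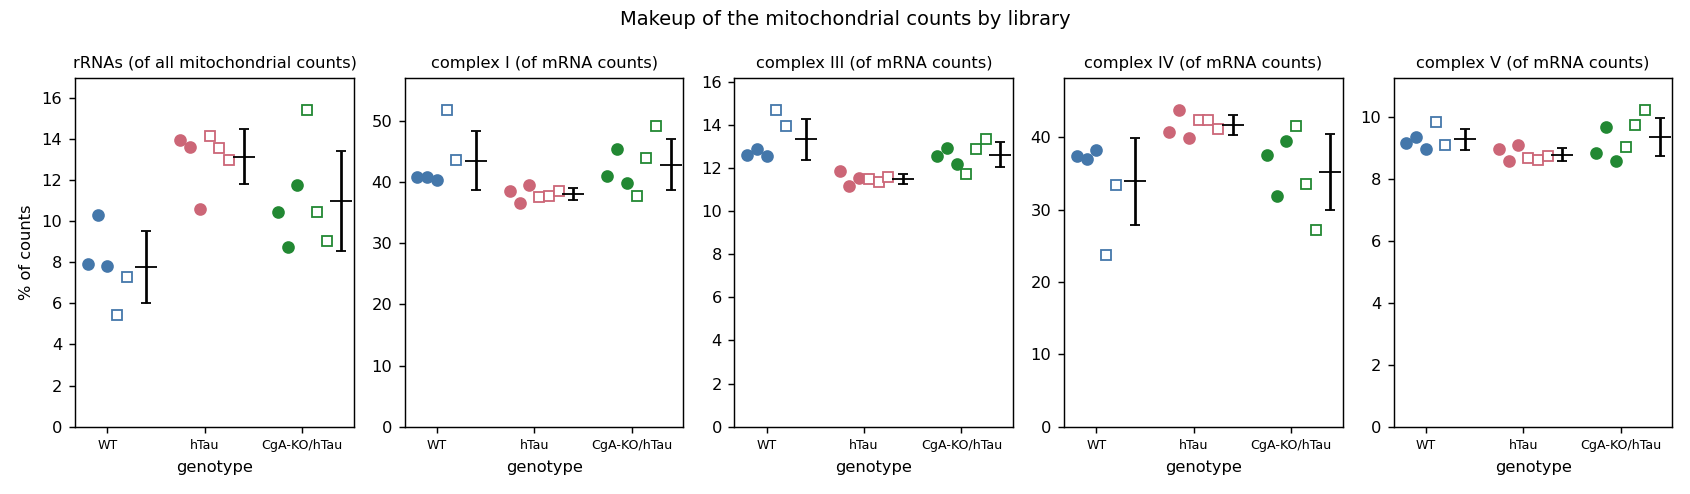
Makeup of the mitochondrial counts in each library (vertical axes, %; the rRNA panel as a share of all mitochondrial counts, the others as shares of the mRNA counts) for the 3 genotypes (horizontal axes), with filled circles for replicates 1 to 3, open squares for replicates 4 to 6 and bars for mean ± SD. The hTau libraries lie together, below the WT libraries for complexes I and III and above them for complex IV and the rRNAs, while CgA-KO/hTau spreads over both.

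By gene, the change of makeup in hTau was not the same for all members of a complex. As a share of mitochondrial counts, mt-Co1 averaged 22.2% ± 3.97 in WT (SD, n = 5), 26.5% ± 0.720 in hTau and 22.3% ± 3.01 in CgA-KO/hTau (SD, n = 6 each), while mt-Co2 averaged 5.14%, 5.07% and 5.03%. Of the 15 mRNA and rRNA genes, mt-Rnr1 and mt-Rnr2 had a higher share in every hTau library than in every WT library, and mt-Nd2, mt-Nd4, mt-Nd6, mt-Atp6 and mt-Cytb a lower one. Of the tRNAs, mt-Tf, mt-Ta, mt-Tn, mt-Tc and mt-Tt had a higher share without overlap and mt-Te a lower one. Between CgA-KO/hTau and hTau, mt-Co1 alone did not overlap, with the lower share in CgA-KO/hTau. Between CgA-KO/hTau and WT, 0 of the 15 were without overlap. Shares of the mitochondrial counts have no counterpart over all genes, and they are tied to each other. In CPM, 0 of the 36 members tested were without overlap between hTau and WT, where 5.13% of all genes were higher and 4.39% lower. Across the 15 genes the log2 ratio of mean shares had a Pearson r of -0.03, 0.03 and -0.02 with GC content in the 3 comparisons, as a description over genes, which are not independent.

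The strands were compared through the light-strand genes, mt-Nd6 and 8 tRNAs, against the 28 heavy-strand genes. Their share of mitochondrial counts was 3.27%, 3.29%, 2.95%, 4.27% and 3.45% in WT 1 to 5. It was 2.86%, 2.698%, 2.89%, 2.70001%, 2.71% and 2.80% in hTau 1 to 6, below every WT library. It was 3.01%, 3.44%, 2.89%, 2.63%, 3.23% and 3.66% in CgA-KO/hTau 1 to 6. The difference of hTau from WT was -0.67 percentage points (exact permutation p = 0.00216, adjusted p = 0.0146), and that of CgA-KO/hTau from hTau was 0.366 (exact permutation p = 0.0433, adjusted p = 0.0779). Most of the light-strand share was mt-Nd6, which averaged 3.23% of the mitochondrial counts in WT, 2.57% in hTau and 2.93% in CgA-KO/hTau. Its counts can hold antisense reads, since the strand setting is not given. These differences are therefore not read as differences between the strands. No difference in the tRNA share was detected between genotypes, with differences of -0.00927 to -0.00110 percentage points and adjusted p-values of 0.485 to 0.866 (exact permutation test).

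WT 4 and WT 5 lay at the far end from hTau in several of these shares. Without each library in turn, the complex IV difference between hTau and WT was 5.22 to 8.84 percentage points, that of complex I -6.24 to -3.37 and that of the rRNAs 4.81 to 6.03, with unadjusted exact permutation p-values of at most 0.00794. The differences were smaller in replicates 1 to 3. There the means of WT and hTau were 37.5% and 41.5% for complex IV, 40.6% and 38.1% for complex I, and 8.68% and 12.7% for the rRNAs. In replicates 4 to 6, where WT has only WT 4 and WT 5, they were 28.6% and 42.0%, 47.7% and 37.9%, and 6.36% and 13.6%. The striatum markers differed in the same comparison, at 161 to 218 CPM in hTau and at 1097 CPM or more in every WT library, and their part in the makeup was not tested.

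Nuclear genes that serve the expression of mitochondrial DNA were examined as a list. Its 51 genes, all tested, cover transcription (9), replication (7), RNA processing and modification (16), RNA stability (13) and regulators (6). In hTau against WT, 0 were called (edgeR). In CgA-KO/hTau against hTau, 2 were higher and 0 lower, and in CgA-KO/hTau against WT, 1 was higher and 2 were lower. Over all genes, the shares called higher and lower were 1.95% and 3.95%, 5.5% and 4.22%, and 3.56% and 2.89% in these comparisons, and no result about the list is read from counts this small. The median log2 fold changes were -0.05, -0.10 and -0.06. In hTau against WT, 10 of the 51 had an unadjusted p under 0.05 (edgeR). The share of all genes at that threshold was not counted, so nothing is read from it.

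Tfam, which packages mitochondrial DNA and starts its transcription, was at 37.1 ± 4.86 CPM in WT (SD, n = 5), 38.6 ± 1.85 in hTau and 36.0 ± 3.99 in CgA-KO/hTau (SD, n = 6 each). Its log2 fold change in CgA-KO/hTau against hTau was -0.10 ± 0.09 (SE, FDR = 0.506, edgeR). Polrmt, the mitochondrial RNA polymerase, had a log2 fold change of -0.35 ± 0.13 in that comparison (SE, FDR = 0.0965, edgeR), and Lrpprc, which stabilizes the mRNAs, one of -0.20 ± 0.11 (SE, FDR = 0.244, edgeR). The genes called higher in CgA-KO/hTau against hTau were Pnpt1, a mitochondrial RNA exonuclease, at 0.45 ± 0.11 (log2, SE, FDR = 0.0198, edgeR), and Gabpa, a transcription factor for respiratory genes, at 0.33 ± 0.10 (FDR = 0.0440, edgeR). Pnpt1 was at 13.9 to 15.9 CPM in hTau and 16.0 to 25.7 CPM in CgA-KO/hTau, without overlap.

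Against WT, Slirp, the partner of Lrpprc, was higher in CgA-KO/hTau by 2.29 ± 0.57 (log2, SE, FDR = 0.0224, edgeR), at a low level of 1.62 to 18.0 CPM against 0.955 to 2.85 CPM in WT. Mterf2, a factor that binds mitochondrial DNA, and Mtpap, the mitochondrial poly(A) polymerase, were lower, at -0.40 ± 0.11 and -0.39 ± 0.11 (log2, SE, FDR = 0.0342 and 0.0415, edgeR). Mtpap was at 25.5 to 28.7 CPM in WT, 19.8 to 29.7 CPM in hTau and 17.2 to 24.4 CPM in CgA-KO/hTau, the last without overlap with WT.

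Symbols that begin with Mrpl or Mrps name the nuclear genes of mitochondrial ribosome proteins, and 83 of 84 such entries were tested. The entries include the pseudogenes Mrpl23-ps1, Mrpl27-ps, Mrpl48-ps, Mrps36-ps1, Mrps36-ps2 and Mrps36-ps3. In hTau against WT 1 was higher and 0 were lower, in CgA-KO/hTau against hTau 3 were higher and 2 lower, and in CgA-KO/hTau against WT 0 were higher and 1 was lower, where 1.95% and 3.95%, 5.5% and 4.22%, and 3.56% and 2.89% of all genes were. Mrpl12, which also binds the mitochondrial RNA polymerase, was the one higher in hTau, at 0.30 ± 0.08 (log2, SE, FDR = 0.0407, edgeR). Mrpl50, Mrpl42 and Mrpl3 rose in CgA-KO/hTau against hTau by 0.32, 0.51 and 0.46 on the log2 scale, and Mrpl34 and the pseudogene Mrpl27-ps fell by 0.38 and 0.85. The median log2 fold changes of the list were 0.06, -0.01 and 0.06, where those of the 36 mitochondrial members were -0.36, 1.60 and 1.36.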

How the data were processed

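PolyA RNA of 17 prefrontal cortex samples was sequenced as paired ends after KAPA mRNA HyperPrep preparation. Per the labels and the submitters' processing notes, the authors used FastQC, Trimmomatic 0.39, STAR 2.7.10b on mm10 and StringTie 1.3.6, and the study names DESeq2 1.42.0. The deposited values are counts per gene that StringTie derives from read coverage, so that low counts peak at 3 and 6, and 3 counts were taken as 1 fragment for intervals. The annotation release and the strand setting are not given in the sources used here.

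Every column was mapped to a sample (0 not mapped). The members and lists were chosen with earlier results of these data known. All members are accounted for. Of the nuclear list, genes with an FDR under 0.05 were named, at most 5 per comparison, plus Tfam, Polrmt, Lrpprc and Slirp. The ribosome genes called were named after their values were seen.

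The counts were fitted with edgeR 4.0.16 (R 4.3.3; TMM, filterByExpr, quasi-likelihood test, 3 genotypes in 1 fit, no covariate), with Benjamini-Hochberg adjustment over 23062 genes. The common biological coefficient of variation was 0.316. Shares were compared by two-sided exact permutation tests of 1 value per library, adjusted over 27 tests (Python 3.11.15). P-values measure the spread between these samples. Gene positions and sequences came from GENCODE M21 (GRCm38, the build that mm10 names), and nuclear copies were found with BLAST 2.17.0. DESeq2 1.42.0, limma 3.58.1 (voom), other scalings and filters, a replicate block, the level of Ddx3y as a covariate, averaged libraries and each library left out served as alternatives. Tested on simulated data for hTau against WT, edgeR recovered 196 of 200 genes changed by 2 on the log2 scale, with 3 false calls over 22590 genes. DESeq2 recovered 199 with 34 false calls over 23062 genes, and voom recovered 196 with 4 false calls over 22590.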

Additional observations from a re-analysis of the deposited data

Results flagged for a closer look

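In each genotype, the highest or lowest library was compared with its neighbour by Dixon's test, and 14 of 72 groups of values held a library far from the rest. Chance flags about 1 in 20 groups, and the members' values within a library are not independent of each other. In WT, 13 of these were high values of WT 4, the library with the fewest counts. Its mitochondrial share was 7.94%, its protein-coding mitochondrial share 7.48% and its complex I share of the mRNA counts 51.7%. Its levels were 7785 CPM for mt-Nd1, 7946 CPM for mt-Nd2, 9529.6 CPM for mt-Nd4, 1517 CPM for mt-Nd4l, 8679 CPM for mt-Nd5 and 3222 CPM for mt-Nd6. They were 11069 CPM for mt-Cytb, 3765 CPM for mt-Co2, 1630.04 CPM for mt-Atp8 and 5794 CPM for mt-Atp6. The remaining one was the rRNA share of mitochondrial counts in hTau 3, which was low at 10.6%.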

How the results depend on the processing

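Counts of members called and shares are given where another setting moved them, and the cause was not tested. For CgA-KO/hTau against hTau, the number called higher was 35 and became 1 with near-identical libraries averaged and 0 in replicates 4 to 6 alone. The number called over all genes, in either direction, was 2242 and became 156 and 190 in these settings. For CgA-KO/hTau against WT, 25 became 7 with only these genotypes fitted, 12 with averaged libraries, 13 to 36 without each library in turn, and 1 higher and 1 lower in replicates 4 to 6 alone. Over all genes, 1489 became 266 with only these genotypes fitted, 577 with averaged libraries and 718 in replicates 4 to 6 alone. In hTau against WT, replicates 4 to 6 alone gave 2 higher and 1 lower, where 1368 of all 23562 genes tested were called. Same-numbered libraries correlated by -0.232 to 0.437, the highest between CgA-KO/hTau 3 and WT 3, so no general pairing by replicate number was seen. The numbers still divide the libraries by their Ddx3y level, with replicates 1 to 3 high and 4 to 6 low in every genotype. With the replicate number as a block, 24 members were called higher against hTau and 8 against WT. Over all 23062 genes tested, 654 and 614 were called in either direction in that setting. The share differences under the block were 7.80 (exact permutation p = 0.0625) and 6.85 percentage points (exact permutation p = 0.188). The share difference from WT was 6.11 with averaged libraries (exact permutation p = 0.0794) and 5.39 to 8.26 without each library. The share difference of hTau from WT was -1.36 to -0.25 without each library, the last without WT 4. In replicates 1 to 3 alone the share differences were 12.8 from hTau and 11.9 from WT, and in replicates 4 to 6 alone 2.76 and 1.18.

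Some differences near 0 turned direction. The tRNA share of hTau against WT became 0.000900 under the block, 0.00248 with averaged libraries, 0.148 per kb, 0.000389 with nuclear copies added and -0.00434 to 0.00117 without each library. For CgA-KO/hTau against WT, complex V became -0.102 under the block, and without each library complex V was -0.102 to 0.224, complex I -1.88 to 1.46 and complex IV -1.30 to 2.85. With members without a nuclear copy only, chosen after seeing the data, no complex IV gene is left in the denominator. Complex I became 1.21 (hTau against WT, exact permutation p = 0.0303), -0.154 (CgA-KO/hTau against hTau, p = 0.747) and 1.05 (CgA-KO/hTau against WT, p = 0.0823). The log2 fold change of mt-Co1 in hTau against WT became 0.000181 scaled to nuclear genes, 0.0181 without the filter, 0.143 with voom, 0.0230 with Ddx3y as a covariate and -0.0876 to 0.102 without each library. That of mt-Co3 became -0.118 with averaged libraries and -0.0337 to 0.129 without each library. The splits by replicate number were also chosen after seeing the data. The 8838334 counts of WT 4 limit its low tRNAs most.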
